A study of Mus musculus with 12 samples.

Results

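Immunoglobulin heavy chain variable (Ighv) segments are the germline pieces that encode most of the antigen-binding domain of an antibody heavy chain. The rows of the deposited count table whose symbol starts with Ighv and whose biotype is IG_V_gene were taken, which gave 113 of 49585 rows. All 113 lie on the minus strand of mouse chromosome 12, within chr12:113578504-116000461 of build mm10, and by the number after Ighv they fall into 16 families, of which family 1 has 53 members. The other 72 Ighv rows, which are 70 pseudogenes and 2 rows of biotype IG_LV_gene, were left out.

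Whole lungs of C57BL/6J mice that carried a subcutaneous MO4 melanoma were sequenced as poly(A)-selected RNA, in 12 libraries of 4 groups with 3 libraries each. The combination group was 22-month-old mice given 2 antibodies, anti-PD-1, which blocks a checkpoint receptor of T cells, and anti-IL-21R, which binds the interleukin-21 receptor. The aged anti-PD-1 group was 22-month-old mice given anti-PD-1 alone, and the aged control group was 22-month-old mice given a rat control antibody. The young anti-PD-1 group was 2-month-old mice given anti-PD-1. The labels place the injections of anti-PD-1 or control antibody on days 3, 7 and 11 after tumour inoculation and give no days for anti-IL-21R. Young mice given control antibody and mice without a tumour were not analysed here. Whether the 3 libraries of a group are 3 separate mice is not stated in the labels, and the p-values below therefore measure only the spread between these samples.

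In a developing B cell, the RAG recombinase joins a V segment to a D and a J segment, and the joined exon is spliced to a constant region gene such as Ighm. A mature B cell therefore usually expresses a single productive V segment, and its clonal descendants keep that segment, so the mixture of V segments in tissue RNA reflects which B lineage cells are present and how much antibody RNA each contains. Plasma cells contain far more antibody RNA per cell than resting B cells. In lung RNA from bulk tissue, fewer cells of a clone and less RNA per cell cannot be told apart.

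The segments that carried the results are shown first, as the last 300 bases of their germline transcripts (GENCODE release 21, mm10), 5′ to 3′ on the coding strand. Capitals mark the bases that differ from the most similar other member, so they show how little separates some of these genes for a short read. Ighv1-26 (chr12:114788372-114788805) led most libraries and is set against Ighv1-18. Ighv1-55 (chr12:115208095-115208591, against Ighv1-53), Ighv1-80 (chr12:115912344-115912776, against Ighv1-82), Ighv1-66 (chr12:115593110-115593591, against Ighv1-84) and Ighv1-4 (chr12:114487136-114487569, against Ighv1-7) stood out in the aged anti-PD-1 libraries. Ighv12-3 (chr12:114366521-114366954, against Ighv3-1) dominated a single combination library.
Ighv1-26: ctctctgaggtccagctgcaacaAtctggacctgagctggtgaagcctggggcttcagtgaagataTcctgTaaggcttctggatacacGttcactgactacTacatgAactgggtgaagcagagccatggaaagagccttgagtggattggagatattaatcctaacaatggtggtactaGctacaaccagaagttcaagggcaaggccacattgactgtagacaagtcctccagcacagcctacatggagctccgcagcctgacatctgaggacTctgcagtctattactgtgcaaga
Ighv1-55: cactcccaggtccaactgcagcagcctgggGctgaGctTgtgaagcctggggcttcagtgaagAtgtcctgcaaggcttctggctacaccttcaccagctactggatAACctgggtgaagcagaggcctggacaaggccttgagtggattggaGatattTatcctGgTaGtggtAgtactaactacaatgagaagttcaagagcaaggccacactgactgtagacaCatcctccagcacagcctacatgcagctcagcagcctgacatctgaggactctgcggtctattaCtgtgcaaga
Ighv1-80: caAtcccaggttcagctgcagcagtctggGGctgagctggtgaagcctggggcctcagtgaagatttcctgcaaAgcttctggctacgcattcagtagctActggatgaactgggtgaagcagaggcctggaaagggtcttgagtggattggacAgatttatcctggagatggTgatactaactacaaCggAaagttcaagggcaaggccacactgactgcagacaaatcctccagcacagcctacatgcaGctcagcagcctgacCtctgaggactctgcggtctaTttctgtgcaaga
Ighv1-66: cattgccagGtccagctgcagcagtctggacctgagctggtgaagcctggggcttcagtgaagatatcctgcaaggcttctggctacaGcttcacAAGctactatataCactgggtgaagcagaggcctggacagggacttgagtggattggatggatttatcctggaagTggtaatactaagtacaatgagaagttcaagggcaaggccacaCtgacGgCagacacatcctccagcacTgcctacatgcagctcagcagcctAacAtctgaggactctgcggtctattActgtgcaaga
Ighv1-4: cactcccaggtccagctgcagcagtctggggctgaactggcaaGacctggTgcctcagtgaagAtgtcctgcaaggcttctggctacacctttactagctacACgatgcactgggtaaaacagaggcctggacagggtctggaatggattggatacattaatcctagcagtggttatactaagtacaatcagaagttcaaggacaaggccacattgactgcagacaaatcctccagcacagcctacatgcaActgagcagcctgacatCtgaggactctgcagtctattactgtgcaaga
Ighv12-3: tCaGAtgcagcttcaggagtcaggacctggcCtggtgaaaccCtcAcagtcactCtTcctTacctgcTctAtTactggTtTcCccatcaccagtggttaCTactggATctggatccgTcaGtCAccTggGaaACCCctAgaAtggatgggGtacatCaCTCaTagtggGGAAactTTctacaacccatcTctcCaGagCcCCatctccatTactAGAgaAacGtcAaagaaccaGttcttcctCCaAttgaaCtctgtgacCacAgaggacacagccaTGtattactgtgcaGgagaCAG

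These 300 bases differed from the named neighbour at 8 positions in Ighv1-26, 15 in Ighv1-55, 12 in Ighv1-80, 14 in Ighv1-66 and 7 in Ighv1-4, against 69 in Ighv12-3. The 4 segments Ighv1-55, Ighv1-80, Ighv1-66 and Ighv1-4 were 84.0% to 88.9% identical to each other. Over all 113 members the median identity to the closest other member was 94.9%, and 55 members exceeded 95%. Windows of 75 bases that occur in no other Ighv gene of the GENCODE release, member or not, made up 79.8% of Ighv1-55, 83.8% of Ighv1-26, 100% of Ighv1-80, 93.2% of Ighv1-66, 73.6% of Ighv1-4 and 100% of Ighv12-3. How reads that fit several segments were counted is not given in the sources used here, so values of close relatives may include each other's reads. Somatic mutation in the antibodies themselves cannot be seen in counts per gene.

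Of the 113 segments, 102 had at least 1 count in some library and 48 had counts in all 12. The 11 segments at 0 in every library were Ighv7-2, Ighv16-1, Ighv8-13, Ighv6-7, Ighv1-24, Ighv8-9, Ighv8-11, Ighv1-16, Ighv2-7, Ighv1-62-1 and Ighv5-12-4. The unique 75-base windows of these 11 made up 68.2% to 100% of their length (median 96.1%), against a median of 94.2% in the 102 detected segments. Ighv16-1 is the only member of family 16, which left 15 families with counts. Libraries held 16021877 to 22058620 counts in all, of which the Ighv rows held 323 to 3029, so every value below rests on few counts.

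The summed Ighv level was 53.0, 108 and 200 CPM (TMM-scaled counts per 1000000 counts) in the combination libraries and 117, 83.7 and 143 CPM in the aged anti-PD-1 libraries. It was 49.8, 45.4 and 67.8 CPM in the aged control libraries and 14.7, 17.0 and 17.3 CPM in the young anti-PD-1 libraries. Every aged library lay above every young library, and the aged anti-PD-1 libraries lay above the aged controls without overlap, while the combination libraries overlapped both other aged groups. The mean was 120 ± 74.1 CPM in combination, 114 ± 29.6 CPM in aged anti-PD-1 libraries, 54.3 ± 11.9 CPM in aged control and 16.4 ± 1.40 CPM in young anti-PD-1 lungs (SD, n = 3 each). Aged anti-PD-1 lungs thus had 7.00 times the mean of young anti-PD-1 lungs and 2.11 times that of aged controls. The combination mean was 1.05 times the aged anti-PD-1 mean and was 80.4 CPM when combination library 3 was left out. No p-value is given for these sums over the segments.

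Other antibody genes were also higher in aged than in young lungs. All 7 tested heavy chain constant genes were higher in aged anti-PD-1 than in young anti-PD-1 lungs in the edgeR quasi-likelihood test, with Benjamini-Hochberg adjustment over 18556 genes and a threshold of 0.05. Of all 18556 genes, 8.09% were called higher and 7.16% lower in that comparison. The summed level of the constant genes averaged 2270 CPM in aged anti-PD-1 and 245 CPM in young anti-PD-1 lungs, a ratio of 9.26. Ighm, the constant gene of IgM, differed by a log2 fold change of 3.33 ± 0.52 (SE; edgeR adjusted p = 0.0029), Igha by 3.34 ± 0.38 (adjusted p = 0.000504) and Ighg3 by 4.92 ± 0.65 (adjusted p = 0.000903). Among light chain variable segments, 33 of 63 tested Igkv segments and 3 of 3 Iglv segments were higher and 0 lower in the same comparison. B cell genes moved with them: 12 of 16 listed genes were higher, and their summed level ran from 705 to 788 CPM in aged anti-PD-1 and from 361 to 426 CPM in young anti-PD-1 lungs. Of 13 plasma cell genes, 7 were higher and 1 lower, and their sum ran from 775 to 911 CPM in aged anti-PD-1 and from 605 to 749 CPM in young anti-PD-1 lungs. Jchain, which links IgM and IgA into polymers, had the largest change of the 13, 4.66 ± 0.59 on the log2 scale (adjusted p = 0.00144). The lower gene was Sdc1, at -0.75 ± 0.18 (edgeR adjusted p = 0.0151). Xbp1, Txndc5 and Fkbp11 hardly moved, at 0, 0.01 and -0.06. The part of B cell or plasma cell numbers in the Ighv levels was not tested.

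Set against the B cell genes, the Ighv sum per 100 CPM of B cell genes averaged 13.1 in combination, 15.1 in aged anti-PD-1 libraries, 9.49 in aged control and 4.15 in young anti-PD-1 lungs. By library it was 7.78, 10.3 and 21.2 in combination, overlapping the 7.82, 10.9 and 9.77 of aged control. The combination mean was 9.04 with library 3 left out. Set against Ighm, there were 5.79, 4.0 and 8.96 Ighv counts per 100 Ighm counts in the combination libraries, 7.68, 5.95 and 6.69 in aged anti-PD-1 libraries, 2.64, 9.99 and 8.52 in aged control and 8.74, 10.7 and 9.80 in young anti-PD-1 libraries. The ratio to Ighm was lower in aged anti-PD-1 than in young libraries without overlap, and it overlapped between the aged groups. Per 100 counts of all heavy chain constant genes, the groups overlapped, at 6.05, 4.34 and 4.82 Ighv counts in aged anti-PD-1 libraries and 5.96, 7.27 and 6.77 in young anti-PD-1 libraries. A gene model of the germline segment ends at the V segment, and the D and J rows caught few reads, with 0 to 3 D counts and 4 to 25 J counts per library. Lung epithelial genes, looked at to check the labelled tissue, summed to 28600 to 56200 CPM per library. Of these 6 genes, 5 were lower in aged anti-PD-1 than in young anti-PD-1 lungs (edgeR adjusted p under 0.05). Of all 18556 tested genes, 7.16% were called lower and 8.09% higher there. A lymph node and thymus list summed to 2.37 to 5.09 CPM per library, with Madcam1 at 0 or 1 count and Ccl21a at 0 to 2 counts.

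**Figure D1:**
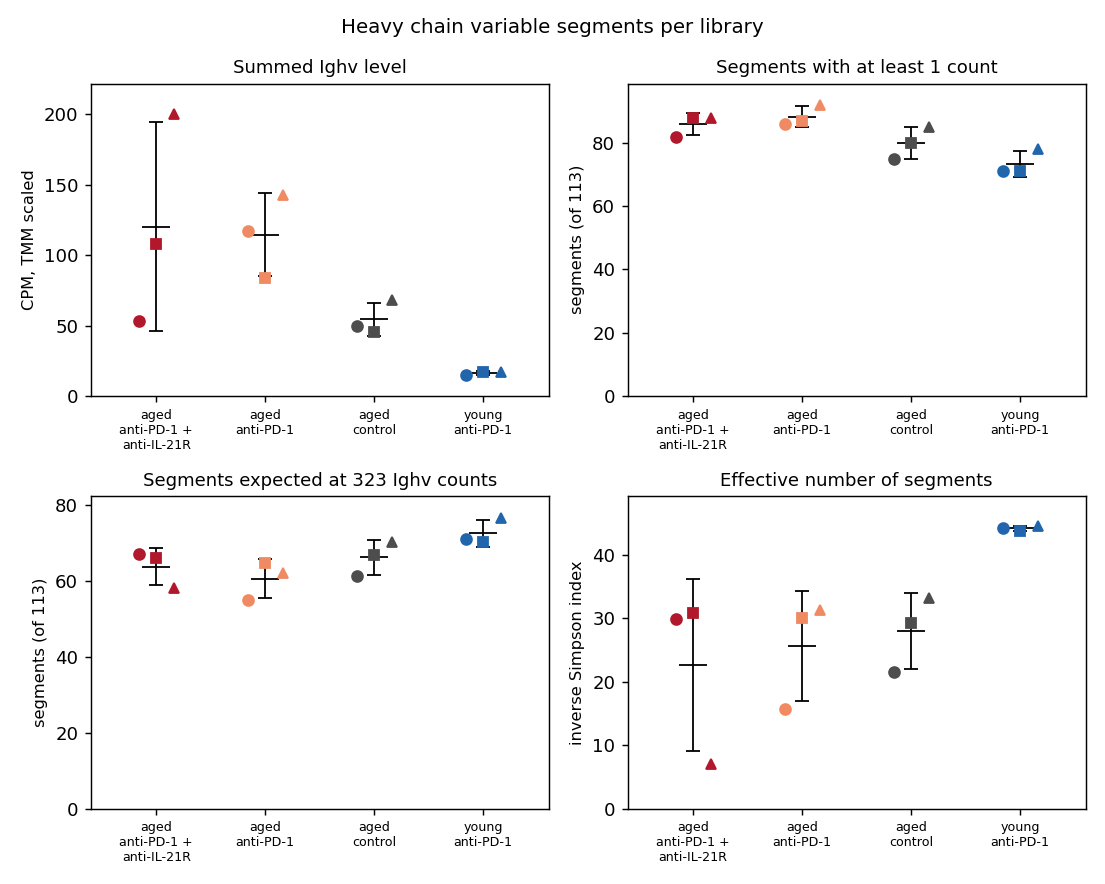
Summed Ighv level (CPM, TMM scaled), segments with at least 1 count, segments expected at 323 Ighv counts (both of 113) and effective number of segments (inverse Simpson index) in each of the 12 libraries, by group. Circles, squares and triangles are replicates 1, 2 and 3, and horizontal and vertical bars are the group mean and SD; the 3 young libraries are lowest in summed level and highest in effective number.

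The number of segments detected depends on how many Ighv counts a library has, so it is given as counted and at equal counts. At least 1 count was seen for 82, 88 and 88 segments in the combination libraries, 86, 87 and 92 in aged anti-PD-1 libraries, 75, 80 and 85 in aged control and 71, 71 and 78 in young anti-PD-1 libraries. The aged anti-PD-1 libraries exceeded the young ones by a mean of 15 segments and the aged controls by 8.33, both without overlap. When each library was thinned to the smallest Ighv total of 323 counts, by the hypergeometric expectation, the order turned round. The expected numbers were then 67.1, 66.1 and 58.3 in combination, 54.9, 64.8 and 62.2 in aged anti-PD-1 libraries, 61.4, 67.0 and 70.4 in aged control and 71.0, 70.2 and 76.6 in young anti-PD-1 libraries. At equal counts aged anti-PD-1 lungs thus showed 12 fewer segments than young anti-PD-1 lungs without overlap, and 5.66 fewer than aged controls, with overlap.

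The young libraries used their segments more evenly than the aged ones. Pielou evenness, which is 1 when all detected segments are used equally, was 0.866, 0.863 and 0.690 in the combination libraries, 0.749, 0.854 and 0.839 in aged anti-PD-1 libraries, 0.836, 0.867 and 0.884 in aged control and 0.917, 0.923 and 0.918 in young anti-PD-1 libraries. All 3 young libraries lay above all 9 aged ones, whereas the aged groups overlapped each other. The means were 0.806 ± 0.101 in combination (0.864 with library 3 left out), 0.814 ± 0.0566 in aged anti-PD-1 libraries, 0.862 ± 0.024 in aged control and 0.920 ± 0.00344 in young anti-PD-1 lungs (SD, n = 3 each). After thinning to 323 counts the values were 0.885, 0.894 and 0.730 in combination, 0.804, 0.886 and 0.888 in aged anti-PD-1 libraries, 0.856, 0.883 and 0.897 in aged control and 0.917, 0.924 and 0.919 in young anti-PD-1 libraries, so the young libraries stayed above the others at equal counts.

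The effective number of segments (inverse Simpson index, unbiased for the number of counts) gave the same order. It was 29.9, 30.9 and 6.97 in the combination libraries, 15.7, 30.1 and 31.3 in aged anti-PD-1 libraries, 21.5, 29.3 and 33.2 in aged control and 44.3, 43.8 and 44.5 in young anti-PD-1 libraries. The lowest values belonged to combination library 3 and aged anti-PD-1 library 1. With the leading segment of each library removed, it was 32.8, 36.7 and 26.8 in combination, 16, 32.5 and 31.5 in aged anti-PD-1 libraries, 28.0, 36.6 and 38.1 in aged control and 47.9, 50.5 and 51.7 in young anti-PD-1 libraries. Combination library 3 then came near the others, and aged anti-PD-1 library 1 did not. To reach 50% of the Ighv counts took 11, 13 and 4 segments in combination, 5, 12 and 11 in aged anti-PD-1 libraries, 8, 11 and 13 in aged control and 14, 15 and 16 in young anti-PD-1 libraries.

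**Figure D2:**
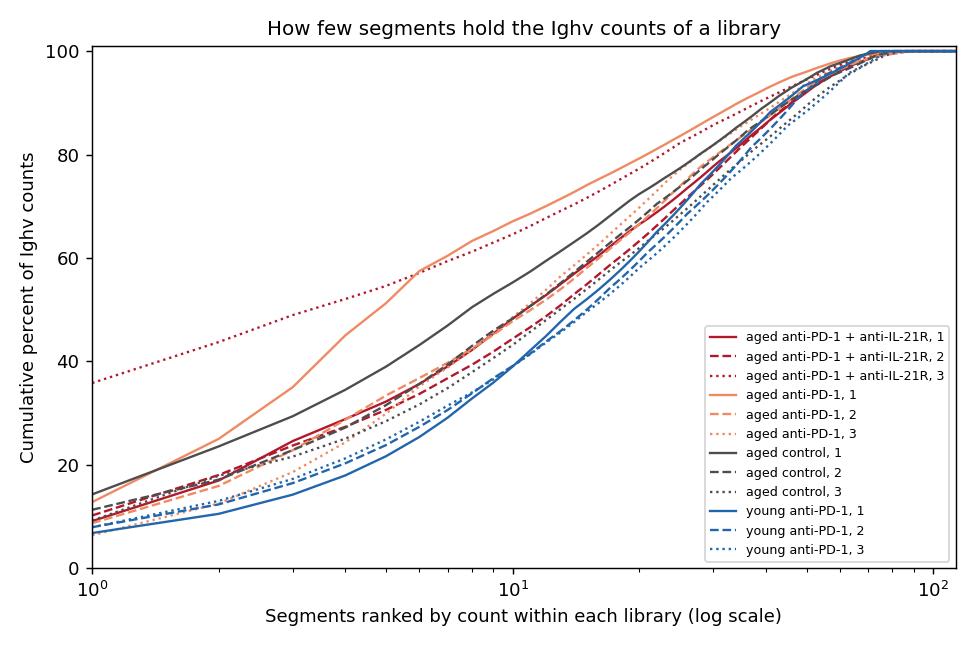
Cumulative percent of the Ighv counts of a library (vertical axis) against the number of segments, ranked by count within that library (horizontal axis, log scale), with 1 line per library. Combination library 3 starts at 35.8% with a single segment, and at 10 segments the 3 young libraries are lowest, with 39.0% to 39.1% of their counts.

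Ighv1-26 was the leading segment in 8 of 12 libraries, namely combination libraries 1 and 2 and all aged control and young libraries, and it had the highest mean share over libraries, 8.08%. Its level was 4.83, 11.0 and 10.4 CPM in combination, 3.44, 4.93 and 8.68 CPM in aged anti-PD-1 libraries, 7.12, 5.13 and 6.25 CPM in aged control and 1.00, 1.35 and 1.37 CPM in young anti-PD-1 libraries. All aged libraries lay above the young ones, and the aged groups overlapped. Ighv1-53, with a mean share of 5.70%, led aged anti-PD-1 library 2 with 145 counts (8.71%) and was the second segment in all 3 combination libraries. After Ighv12-3, whose mean share of 4.83% came largely from combination library 3, the mean shares were 4.53% for Ighv9-3, 4.16% for Ighv1-55, 3.59% for Ighv3-6, 3.17% for Ighv1-80, 2.78% for Ighv6-3, 2.78% for Ighv1-82 and 2.60% for Ighv5-17. Dividing by exon length, 294 to 480 bases over the members, moved no mean share over libraries by more than 0.47 percentage points.

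Between aged and young mice given anti-PD-1, the question was whether V segments differed in level one by one. Only 54 of the 113 segments passed the filter on low counts, and these held 92.0% of all Ighv counts. The cut-off of 0.534 CPM was reached in all 3 young libraries by 2 segments, so most of the 54 passed through the aged groups. Such a filter favours segments that are higher there than in young lungs. The counts that follow are therefore a description. Of the 54, 30 were called higher in aged anti-PD-1 lungs and 0 lower (edgeR adjusted p under 0.05), where 8.09% of all 18556 tested genes were called higher and 7.16% lower. The median log2 fold change was 2.32 over the 54 segments, against -0.007 over all genes tested. Groups did not overlap for 47 of the 54, all higher in aged anti-PD-1, against 19.7% of all genes in that direction and 19.9% in the other. Over all 113 segments, tested or not, mean CPM was higher in aged anti-PD-1 lungs for 89, lower for 11 and equal for 13.

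The segments with the largest changes came from several families. Ighv1-66 had 279, 56 and 93 counts in aged anti-PD-1 libraries, against 0, 0 and 2 counts in young ones. Its summed counts per library size differed 209-fold, with a 95% counting interval from 57.5 to 1730 that leaves out the spread between libraries (edgeR adjusted p = 0.00275). Ighv1-80 had 14.3, 3.92 and 8.18 CPM in aged anti-PD-1, against 0.183, 0.150 and 0.343 CPM in young anti-PD-1 libraries. Its log2 fold change was 5.26 ± 0.58 (adjusted p = 0.000311), and its groups were far apart. Ighv1-55 followed with 4.32 ± 0.41 (adjusted p = 0.00021), Ighv1-53 with 4.38 ± 0.69 (adjusted p = 0.00218) and Ighv1-4 with 4.88 ± 0.97 (adjusted p = 0.00615). Outside family 1, Ighv9-3 had 11.7, 5.78 and 7.53 CPM in aged anti-PD-1, against 0.456, 0.751 and 0.588 CPM in young anti-PD-1 libraries. That is a log2 fold change of 3.80 ± 0.46 (adjusted p = 0.000442). Ighv3-6 changed by 3.40 ± 0.59 (adjusted p = 0.00318), Ighv5-17 by 2.90 ± 0.46 (adjusted p = 0.00164) and Ighv2-9-1 by 3.59 ± 1.00 (adjusted p = 0.0302). Ighv2-9-1 had 7, 12 and 104 counts in the aged anti-PD-1 libraries, and its adjusted p was 0.256 with library 3 left out; its call was also lost with any young library left out.

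Ighv1-26 itself changed by 2.19 ± 0.38 (edgeR adjusted p = 0.0032), less than the median of the 54. Ighv1-42 and Ighv1-39 changed by 3.34 ± 0.73 and 3.31 ± 0.81, with adjusted p of 0.00927 and 0.0162. At the ends of the locus, the D-proximal Ighv2-2 (chr12:113588267-113588702) and Ighv5-4 (chr12:113597446-113597977) were higher by 2.42 ± 0.61 and 3.16 ± 0.76, with adjusted p of 0.0179 and 0.0144. At the far end, Ighv1-81 (chr12:115920279-115920712) was higher by 2.22 ± 0.62 (adjusted p = 0.0279). Ighv1-82 (chr12:115952538-115953005) had 1.09, 1.71 and 2.29 CPM in aged anti-PD-1, against 0.548, 0.60 and 0.882 CPM in young anti-PD-1 libraries. It missed the threshold at 1.31 ± 0.45 (adjusted p = 0.0618), although its groups did not overlap. With single libraries left out, Ighv1-39 lost its call in the fits lacking aged anti-PD-1 library 3, young library 1 or young library 2, and Ighv5-4 in those lacking library 3 of either group. Ighv2-2 and Ighv1-81 lost theirs in the fits lacking aged anti-PD-1 library 1, young library 2 or young library 3, and Ighv1-81 also in the fit lacking aged anti-PD-1 library 3. Leaving out aged anti-PD-1 library 3 gave 16 called segments, leaving out young library 2 gave 18 and leaving out young library 3 gave 15.

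In aged mice, anti-PD-1 was set against the control antibody. Of the 54 segments, 8 were higher and 0 lower, where 5.34% of all genes were called higher and 5.58% lower. The median log2 fold change over the 54 was 0.72, against -0.016 over all genes. Ighv1-55 had 15, 6.03 and 9.08 CPM in aged anti-PD-1 libraries, against 0.935, 1.02 and 1.71 CPM in aged controls, a log2 fold change of 3.04 ± 0.37 (edgeR adjusted p = 0.00177). Ighv1-80 had 14.3, 3.92 and 8.18 CPM in aged anti-PD-1, against 1.09, 0.903 and 0.855 CPM in aged control libraries, a change of 3.21 ± 0.48 (adjusted p = 0.00459). All 3 aged anti-PD-1 libraries lay above the controls for both segments, and the first of them was the highest. Both calls held when any single library was left out.

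Ighv1-66 had 279, 56 and 93 counts in aged anti-PD-1, against 0, 1 and 8 counts in aged control libraries, with a fitted change of 5.26 ± 0.98 (edgeR adjusted p = 0.00951, and 0.0521 with control library 2 left out). Ighv1-4 had 29, 11 and 90 counts in aged anti-PD-1, against 2, 4 and 6 counts in aged control libraries. Its change of 3.23 ± 0.83 (adjusted p = 0.0273) lost its call when aged anti-PD-1 library 3 or any control library was left out, with an adjusted p of up to 0.127. Ighv9-3 had 11.7, 5.78 and 7.53 CPM in aged anti-PD-1, against 1.3, 2.65 and 2.30 CPM in aged controls, and its change of 2.01 ± 0.40 (adjusted p = 0.0113) was called in all left-out fits. Ighv3-6 changed by 2.09 ± 0.53 (adjusted p = 0.0273), Ighv14-4 by 2.06 ± 0.61 (adjusted p = 0.0449) and Ighv1-12 by 2.02 ± 0.60 (adjusted p = 0.0458). Ighv3-6 lost its call when aged anti-PD-1 library 1 or 3 or control library 2 was left out, Ighv14-4 whichever library was left out and Ighv1-12 for every library but control 1, at adjusted p of up to 0.0902, 0.137 and 0.133. Of the 54 tested segments, 14 reached the 0.534 CPM cut-off in fewer than 3 libraries outside aged anti-PD-1 and so would not have passed without that group. Ighv1-66, Ighv1-4, Ighv14-4 and Ighv1-12 were among them, taken in by a filter that favours segments high in aged anti-PD-1 libraries. Their changes here are therefore a description, as is the count of 8. Leaving out aged anti-PD-1 library 3 gave 4 called segments, leaving out control library 2 gave 3 and leaving out control library 3 gave 5. Ighv1-26, the usual leader, had a log2 change of -0.12 ± 0.34 (adjusted p = 0.842). Among the other antibody genes, 1 of 7 heavy chain constant genes (Ighg3), 6 of 63 Igkv segments and 4 of 16 B cell genes were higher and 0 of each were lower. Of all genes, 5.34% were called higher and 5.58% lower there. The B cell genes summed to 705 to 788 CPM in aged anti-PD-1 lungs and 418 to 694 CPM in aged control libraries, and their part in these calls was not tested.

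Adding anti-IL-21R to anti-PD-1 left the summed Ighv level within the spread of the libraries, but single segments differed. Of the 54 segments, 1 was higher and 4 were lower in combination than in aged anti-PD-1 lungs, where 4.67% of all genes were called higher and 4.35% lower, a share of 9.02% in either direction. The share of called segments, 5 of 54, was thus near that of all genes. The median log2 fold change was -0.07 over the 54 and -0.009 over all genes. The 4 lower segments were Ighv1-55, Ighv1-80, Ighv1-66 and Ighv1-4, all of which were also called in aged anti-PD-1 against control. Both comparisons use the same aged anti-PD-1 libraries, so a segment that is high in those libraries by itself gives opposite signs in both.

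Ighv1-55 had 1.8, 2.75 and 3.63 CPM in combination, against 15, 6.03 and 9.08 CPM in aged anti-PD-1 libraries, and its change of -1.89 ± 0.34 (edgeR adjusted p = 0.0081) held when any library was left out. Ighv1-80 had 1.8, 0.959 and 3.17 CPM in combination, against 14.3, 3.92 and 8.18 CPM in aged anti-PD-1 libraries, a change of -2.16 ± 0.45 (adjusted p = 0.0144, and up to 0.0709 when aged anti-PD-1 library 1 or combination library 2 was left out). Neither segment overlapped between these groups. Ighv1-66 had 2, 9 and 31 counts in combination, against 279, 56 and 93 counts in aged anti-PD-1 libraries, a change of -2.85 ± 0.79 (adjusted p = 0.0430). Ighv1-4 had 2, 1 and 7 counts in combination, against 29, 11 and 90 counts in aged anti-PD-1 libraries, a change of -3.28 ± 0.85 (adjusted p = 0.0317). Of the 6 fits with a library left out, Ighv1-66 was called only in the one lacking combination library 3, and Ighv1-4 only in that one and in the one lacking aged anti-PD-1 library 2. Their adjusted p reached 0.181 and 0.139. The higher segment was Ighv10-3, with 17, 36 and 18 counts in combination, against 11, 7 and 6 counts in aged anti-PD-1 libraries, a change of 1.96 ± 0.49 (adjusted p = 0.0270, and up to 0.149 when combination library 2 or any aged anti-PD-1 library was left out). Ighv1-66 and Ighv1-4 passed the filter only through aged anti-PD-1, and Ighv10-3 reached its cut-off in the 3 combination libraries alone, so the changes of these segments are a description too. Leaving out aged anti-PD-1 library 1, 2 or 3 gave 1, 3 or 2 called segments, leaving out combination library 2 gave 1 and leaving out combination library 3 gave 8.

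Against the aged controls, the combination group gave no call: 0 of 54 segments, and 0% of all 18556 genes, had an adjusted p under 0.05 in edgeR. DESeq2 and limma-voom also called 0. An unadjusted p under 0.05 was found for 12 segments by edgeR, 11 by DESeq2 and 7 by limma-voom. The share of all genes at that unadjusted level was not counted, so nothing is read from these numbers. The median log2 fold change was 0.87 over the 54 segments, against -0.009 over all genes. Of the 54, 45 lay above 0 and 9 below, and the share of all genes above 0 was not counted. Ighv10-3 had 17, 36 and 18 counts in combination, against 10, 2 and 5 in aged control libraries, a change of 2.26 ± 0.52 with the smallest adjusted p, 0.328. For Ighv1-55, at 1.8, 2.75 and 3.63 CPM in combination against 0.935, 1.02 and 1.71 CPM in aged controls, the change was 1.15 ± 0.38 (edgeR adjusted p = 0.570), with no overlap.

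**Figure D3:**
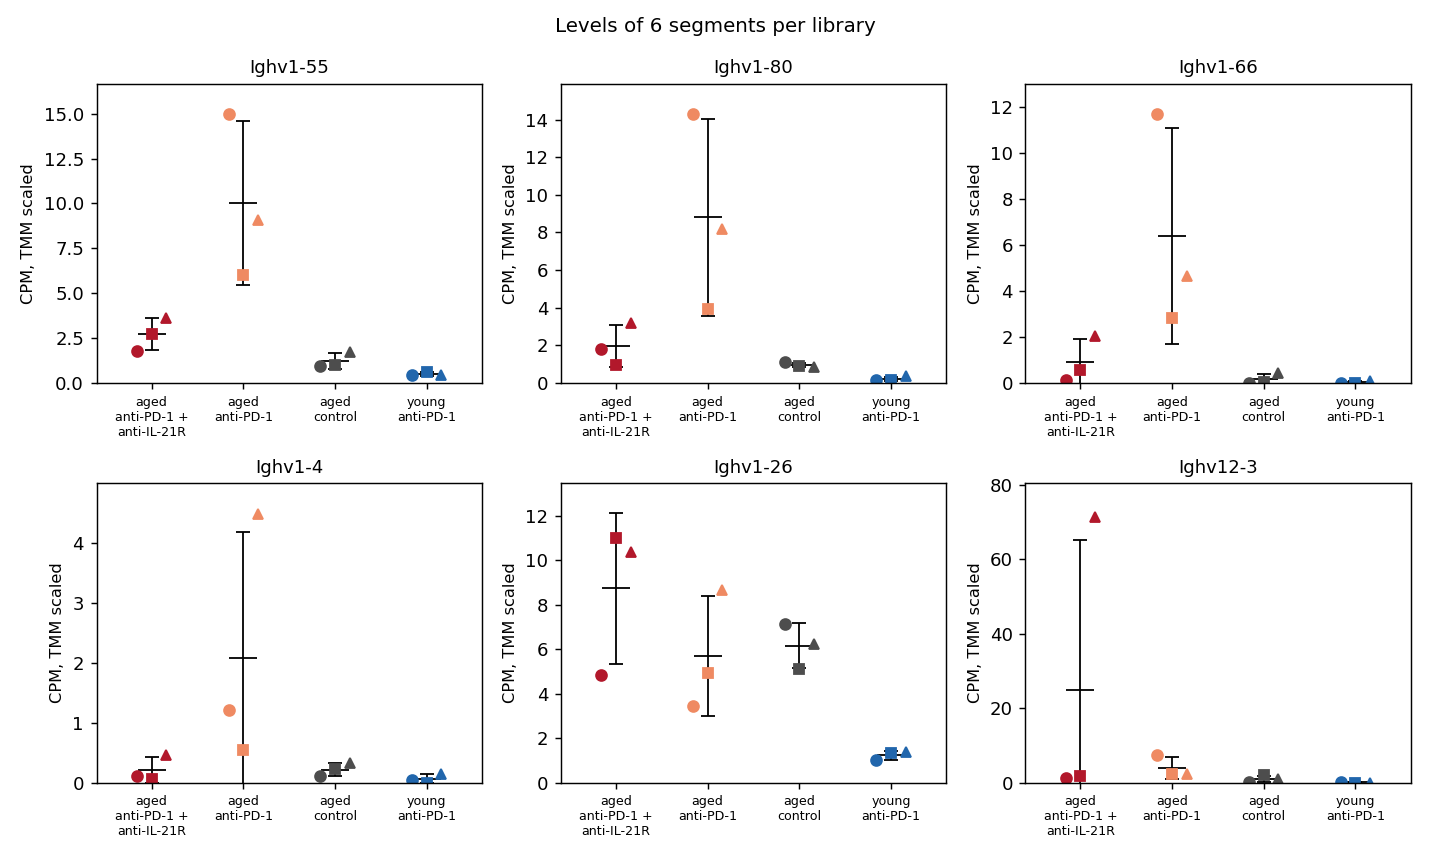
Level of 6 segments (CPM, TMM scaled; each panel has its own vertical axis) in each library, by group; circles, squares and triangles are replicates 1, 2 and 3, and bars are the mean and SD, cut at 0. Ighv1-55, Ighv1-80, Ighv1-66 and Ighv1-4 are highest in aged anti-PD-1 lungs, Ighv1-26 is lowest in young lungs, and Ighv12-3 reaches 71.5 CPM in a single combination library.

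The segments Ighv1-55, Ighv1-80, Ighv1-66 and Ighv1-4, grouped after their values were seen, together held 7.21%, 4.04% and 4.66% of Ighv counts in the combination libraries, 36.1%, 15.9% and 18.5% in aged anti-PD-1 libraries, 4.28%, 4.84% and 4.89% in aged control and 4.64%, 4.41% and 5.95% in young anti-PD-1 libraries. Their share was thus at least 15.9% in the aged anti-PD-1 libraries, and between 4.04% and 7.21% in all other libraries. Without them the summed Ighv level was 49.2, 103 and 190 CPM in combination, 74.9, 70.3 and 116 CPM in aged anti-PD-1 libraries, 47.7, 43.2 and 64.5 CPM in aged control and 14.1, 16.3 and 16.3 CPM in young anti-PD-1 libraries. These 4 segments were called from the same libraries as higher in aged anti-PD-1 than in aged control lungs. Their larger share, and a narrower gap to the controls without them, are set by that choice and are a description. Without them the aged anti-PD-1 libraries lay above the controls. The effective number without them was 18.2, 28.6 and 29.4 in aged anti-PD-1 libraries and 42.1, 42.2 and 41.2 in young ones. Aged anti-PD-1 library 1 had 1006 counts in these 4 segments, against 265 and 529 in the other aged anti-PD-1 libraries.

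Combination library 3 stood apart through Ighv12-3. This segment had 1085 of 3029 Ighv counts there, a share of 35.8% (95% exact binomial interval 34.1% to 37.6%, counting error only). Its counts were 23, 27 and 1085 in combination, 174, 46 and 47 in aged anti-PD-1 libraries, 4, 35 and 18 in aged control and 3, 0 and 1 in young anti-PD-1 libraries. No group comparison called it: the change was 2.61 ± 1.34 against aged anti-PD-1 (edgeR adjusted p = 0.253) and 4.57 ± 1.57 against aged control (adjusted p = 0.634). The next highest library was aged anti-PD-1 library 1, in which it made 7.31 CPM.

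Ighv12-3 is known from phosphatidylcholine-binding antibodies of mouse B-1 cells, an innate-like B cell lineage, in which it is typically paired with the light chain segment Igkv4-91. Igkv4-91, looked up after the Ighv12-3 values were seen, had 53, 138 and 2092 counts in combination, 307, 84 and 98 in aged anti-PD-1 libraries, 41, 73 and 27 in aged control and 4, 9 and 11 in young anti-PD-1 libraries. It was the leading light chain segment of combination library 3, at 22.9% of its Igkv and Iglv counts, and had rank 5 in aged anti-PD-1 library 1. The other heavy chain segment known from such antibodies, Ighv11-2 (chr12:114048241-114048812), typically pairs with Igkv14-126. Ighv11-2 had 3, 52 and 29 counts in combination, 21, 12 and 20 in aged anti-PD-1 libraries, 16, 46 and 15 in aged control and 10, 0 and 2 in young anti-PD-1 libraries. Igkv14-126 had 14, 142 and 61 counts in combination, 65, 25 and 40 in aged anti-PD-1 libraries, 67, 165 and 34 in aged control and 20, 9 and 11 in young anti-PD-1 libraries. Both were highest in combination library 2 and aged control library 2. Counts per gene cannot show whether heavy and light chains came from the same cells.

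With Ighv12-3 included, the pairwise Morisita overlap of segment use, which is 1 for identical use and 0 for no shared segment, ran from 0.282 to 0.922 within the combination group. Without Ighv12-3 it ran from 0.859 to 0.921. Within the other groups it ran from 0.763 to 0.912 in aged anti-PD-1, from 0.806 to 0.909 in aged control and from 0.805 to 0.934 in young anti-PD-1 lungs. Between aged anti-PD-1 and young anti-PD-1 libraries the median over 9 pairs was 0.720 (0.448 to 0.819). Between aged anti-PD-1 and aged control it was 0.727 (0.397 to 0.871). Between combination and aged anti-PD-1 libraries it was 0.548 (0.27 to 0.868), and 0.779 (0.409 to 0.887) without Ighv12-3. These ranges reached into those within groups. Against young and control libraries, every pair with aged anti-PD-1 library 1 lay below all pairs with the other aged anti-PD-1 libraries.

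By family, family 1 held 49.3% ± 8.27 of the Ighv counts in combination, 61.2% ± 0.503 in aged anti-PD-1 libraries, 60.7% ± 9.19 in aged control and 56.2% ± 1.94 in young anti-PD-1 lungs (SD, n = 3 each). Its share lay between 60.7% and 61.7% in aged anti-PD-1 libraries, against 54.1% to 57.9% in young ones, while the other aged groups spread more widely. Family 8 was the family whose share was higher in every young library, at 3.68% to 4.64%, than in every aged one, at 1.48% to 2.20% in combination, 1.36% to 2.70% in aged anti-PD-1 and 1.42% to 2.73% in aged control libraries. Of its 9 members, 6 had a count.

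Along the locus, the 37 segments farthest from the D segments held 26.9% to 36.3% of Ighv counts in combination, 41.9% to 50% in aged anti-PD-1 libraries, 32.0% to 37.5% in aged control and 31.2% to 44.0% in young anti-PD-1 libraries. Aged anti-PD-1 libraries thus lay above both other aged groups. Ighv1-55, Ighv1-80 and Ighv1-66 belong to that stretch. Without these and Ighv1-4, the stretch held 31.5%, 29.6% and 23.6% in combination, 23.4%, 35.1% and 32.5% in aged anti-PD-1 libraries, 35.0%, 29.1% and 34.8% in aged control and 41.6%, 38.2% and 27.7% in young anti-PD-1 libraries, and the groups overlapped. The removed segments were grouped after their high values in aged anti-PD-1 libraries were seen, so this overlap is a description. The middle 38 segments held 39.4% to 59.9% in combination, where Ighv12-3 lies, and 28.3% to 35.5% in aged anti-PD-1 libraries, 33.3% to 39.4% in aged control and 27.2% to 42.2% in young anti-PD-1 libraries. The 38 segments nearest the D segments held 13.2% to 25.9% in combination, 21.8% to 26.2% in aged anti-PD-1 libraries, 23.0% to 34.7% in aged control and 26.2% to 28.8% in young anti-PD-1 libraries.

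**Figure D4:**
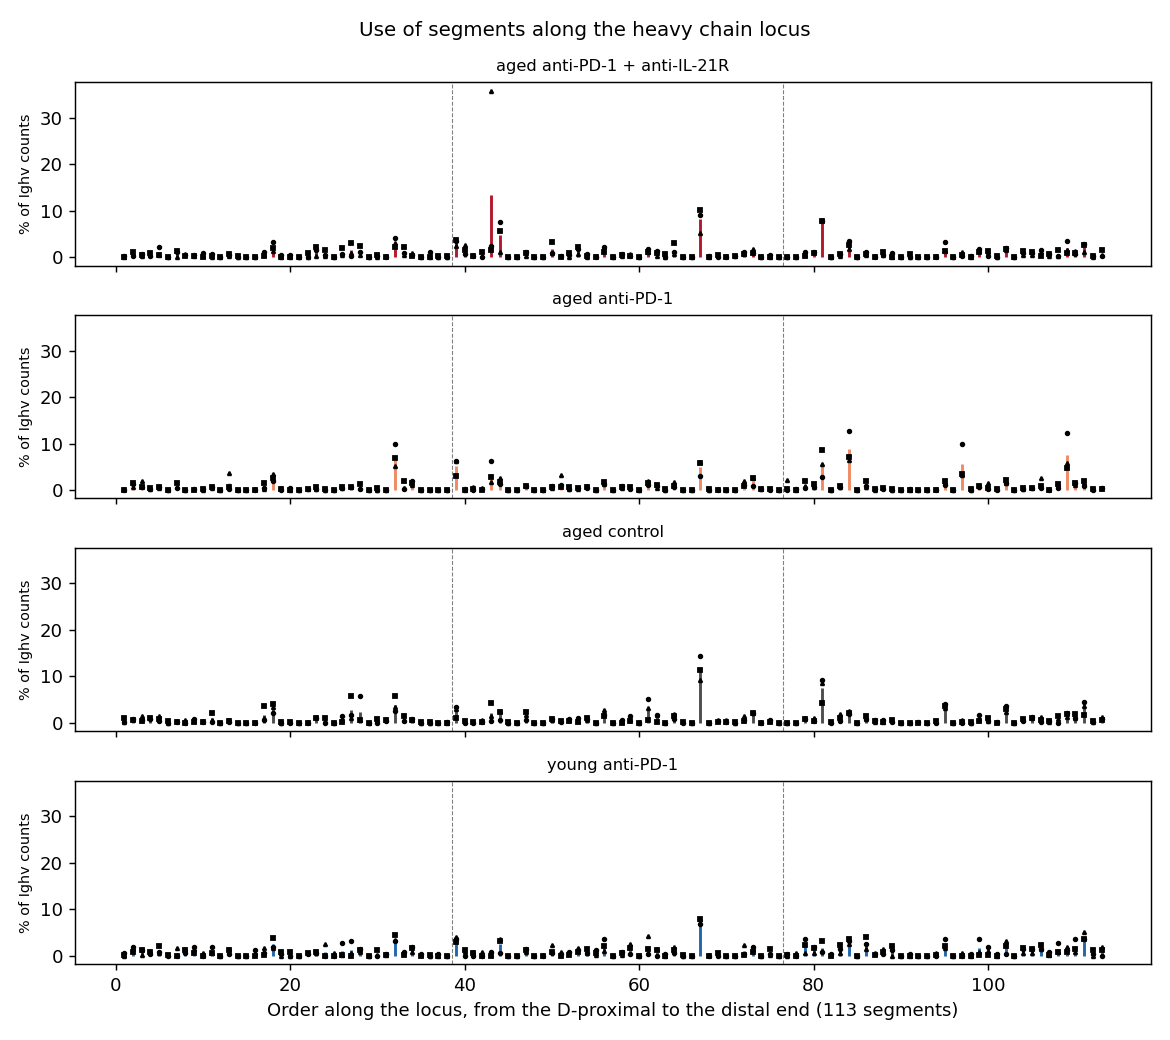
Share of Ighv counts (percent, vertical axis) for the 113 segments in their order along the locus, from the D-proximal to the distal end (horizontal axis), with 1 panel per group. Coloured bars are group means, circles, squares and triangles are replicates 1, 2 and 3, and dashed lines part the 38, 38 and 37 segments; the tall point in the combination panel is Ighv12-3 at 35.8%, and the aged anti-PD-1 panel has added height at the distal Ighv1-55, Ighv1-66 and Ighv1-80.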

How the data were processed

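The authors deposited raw read counts per gene for 12 libraries, with no normalization stated in the file header. Per the submitters' processing notes, base calls were converted by bcl2fastq 1.8.4, reads trimmed with Trimmomatic and aligned to mm10 by HISAT2, and genes counted by featureCounts 1.6.3. The annotation release, the strand setting and the handling of multi-mapping reads are not given in the sources used here. Kits for directional poly(A) libraries were used, per the labels' protocols. The deposited coordinates of all 113 segments equalled those of GENCODE release 21, which supplied exon lengths and sequences.

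Totals of 16021877 to 22058620 counts per library were scaled by TMM factors from 0.866 to 1.08. Genes were filtered by filterByExpr (minimum count 10, minimum total 15), which left 18556 genes. A single edgeR 4.0.16 quasi-likelihood fit (limma 3.58.1, R 4.3.3) with 4 group means, robust dispersion and 8 residual degrees of freedom gave two-sided tests, adjusted by Benjamini-Hochberg over all genes and called under 0.05. The SE was derived from the fold change and its F statistic. The common biological coefficient of variation was 0.156. The fit and the diversity measures were tested on simulated data. Evenness is Shannon entropy over the log of the segments detected. Thinning and intervals cover counting error only, and reads have no molecular identifiers. Sums, detected segments and evenness were given no p-value; 3 libraries against 3 could not go below 0.1 in an exact two-sided permutation test.

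Segments were named by rule: the 10 highest mean shares, the leader of each library, up to 10 called segments per direction and comparison, and the 2 segments at each end of the locus among those with counts in all libraries. Ighv11-2 is outside the rule, as are Igkv4-91 and Igkv14-126, and were chosen after values were seen. The members, lists and tests were chosen with earlier results of these data known. Libraries of 1 group differed beyond counting noise, with a chi-square per degree of freedom from 9.68 to 48.5 over all genes. Alternatives were DESeq2 1.42.0, limma-voom, other scalings, other filters, a replicate block, fits of fewer groups and leaving out each library. Figures used Python 3.11.15 and matplotlib 3.10.9.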

Additional observations from a re-analysis of the deposited data

How the results depend on the processing

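For aged anti-PD-1 against young anti-PD-1, between 27 and 36 segments were called under DESeq2, limma-voom, RLE scaling, TMM without immunoglobulin genes, no filter and a fit of only the 2 groups compared. Leaving out 1 library gave 15 to 28. For aged anti-PD-1 against aged control, 8 became 5 with DESeq2, 5 with only the 2 groups compared and 5 with only the 9 aged libraries (chosen after seeing the data), and 3 to 6 with 1 library left out. For combination against aged anti-PD-1, 5 became 3, 2 and 3 in the same settings, and 1 to 8 with 1 library left out. DESeq2 and edgeR shared 2 of these. For combination against aged control, no alternative called any segment. The fits with fewer groups use fewer samples, and the cause of the other changes was not tested. With replicate number as a block, 31, 8, 5 and 0 segments were called in the order of the comparisons, of which 29, 6, 5 and 0 were shared with the fit without the block. Residuals of same-numbered libraries had a median correlation of -0.012 over 18 pairs (-0.169 to 0.171), so no pairing by number was seen. With 3 libraries per group this cannot exclude a pairing. Over named segments and alternatives, 1025 results kept their side of the threshold, 78 lost the threshold and 12 gained it. Of results called in either fit, 0 changed sign. Sign changes of results called in neither fit were not counted apart and are among the 1025.

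The log2 ratio of the Ighv sums ran from 2.62 to 2.99, 0.89 to 1.27, -0.51 to 0.43 and 0.56 to 1.5 with 1 library left out, so for combination against aged anti-PD-1 even its sign depended on single libraries. It was also -0.12 without TMM factors. The difference in segments detected ran from 13.2 to 17.3, 5.83 to 10.8, -3.5 to -0.333 and 3.5 to 8.5. Requiring 3 counts made the first difference 26.0, and 10 counts made it 40, with 21.3 for aged anti-PD-1 against control and 15.7 for combination against control. At equal Ighv counts the differences were -12, -5.66, 3.19 and -2.47, each with the opposite sign to the difference as counted. The evenness differences ran from -0.125 to -0.073, -0.068 to -0.0158, -0.0401 to 0.0504 and -0.0858 to 0.00217. Without Ighv12-3 (chosen after seeing the data) the third was 0.0473, against -0.00769 with it.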

Other observations

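Switched isotypes, meaning constant genes other than Ighm and Ighd, made up 26.8%, 25.7% and 18.3% of heavy chain constant counts in the combination libraries, 16.4%, 22.2% and 24.7% in aged anti-PD-1 libraries, 15.6%, 19.7% and 20% in aged control and 10.6%, 13.5% and 13.5% in young anti-PD-1 libraries. All aged libraries lay above the young ones, and the aged groups overlapped. Of 8 T cell genes, 4 were higher and 0 lower in aged anti-PD-1 than in young anti-PD-1 lungs (edgeR, adjusted p under 0.05), where 8.09% of all 18556 tested genes were higher and 7.16% lower. Of the 8, 0 were called in combination against aged anti-PD-1, where 9.02% of all genes were called in either direction.

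Among the 100 Igkv segments, 63 passed the filter. In combination against aged anti-PD-1, 1 was higher and 2 were lower, where 4.67% of all genes were higher and 4.35% lower in edgeR. In combination against aged control 0 were called, as were 0% of all genes. Aged control library 1 had the fewest Ighv counts per 100 Ighm counts, 2.64, and the fewest Igkv counts per 100 Igkc counts, 16, against 9.99 and 8.52 and 32.5 and 32.0 in the other controls.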
